A study of Homo sapiens with 18 samples.

Results

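A set of 39 genes that mark monocytes and macrophages was chosen by symbol and read from a table of raw counts for 58735 genes in 18 libraries. Their levels show which of them podocytes without macrophages also carried and which were seen almost exclusively in libraries with macrophages. The cells were PODO/TERT256, human podocytes made long-lived with telomerase, grown on 3D hemispheres of fractal or smooth topography. The 6 groups of 3 libraries were fractal THP-1, smooth THP-1, fractal cytokines, smooth cytokines, fractal control and smooth control. THP-1 stands for inflammation brought about by macrophages made from THP-1 cells, which come from a monocytic leukaemia, and cytokines for TNF-α with IL-6. The labels give neither doses, times and cell numbers nor how the macrophages were kept with the podocytes or removed before RNA was taken. Nor do they state that the 3 libraries in each group are independent cultures, so the p-values rest on differences among libraries that may be technical.

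Monocytes circulate in blood and become macrophages in tissue, where they take up particles, make oxidants, present antigen and secrete chemokines and complement. Their identity depends on PU.1, the transcription factor encoded by SPI1, which binds a purine-rich sequence with a GGAA core in the promoters of many myeloid genes. Macrophages enter the glomerulus in several forms of kidney inflammation, next to the podocytes that cover its filtration barrier. Many leukocyte markers are not exclusive to blood cells: SRGN, CYBA and CD14, for example, are also made by other cell types.

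The 250 bases before the start site are shown for 4 members because the controls separated them. LCP1, TYROBP and CHI3L1 were almost uncounted in control libraries, whereas CYBA was abundant there. The sequences are from RefSeq (GRCh38.p14), all on the minus strand, at chr13:46182178-46182427, chr19:35908296-35908545, chr1:203186705-203186954 and chr16:88651054-88651303. Capitals mark the 6 letters GAGGAA, a core that PU.1 prefers, or TTCCTC on the other strand.
LCP1: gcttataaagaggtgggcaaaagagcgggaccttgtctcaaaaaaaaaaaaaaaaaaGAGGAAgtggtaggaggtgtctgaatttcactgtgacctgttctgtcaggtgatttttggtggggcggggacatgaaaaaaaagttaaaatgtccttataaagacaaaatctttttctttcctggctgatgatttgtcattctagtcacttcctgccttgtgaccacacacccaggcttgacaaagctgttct
TYROBP: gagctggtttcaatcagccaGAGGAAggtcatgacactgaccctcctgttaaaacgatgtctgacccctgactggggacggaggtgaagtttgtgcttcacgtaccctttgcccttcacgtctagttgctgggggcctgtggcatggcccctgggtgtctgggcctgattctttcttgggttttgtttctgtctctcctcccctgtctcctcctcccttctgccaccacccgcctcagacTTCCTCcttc
CHI3L1: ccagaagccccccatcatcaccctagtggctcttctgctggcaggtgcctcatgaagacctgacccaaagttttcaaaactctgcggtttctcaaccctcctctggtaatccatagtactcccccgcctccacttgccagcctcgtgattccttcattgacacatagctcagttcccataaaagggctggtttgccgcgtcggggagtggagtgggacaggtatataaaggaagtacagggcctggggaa
CYBA: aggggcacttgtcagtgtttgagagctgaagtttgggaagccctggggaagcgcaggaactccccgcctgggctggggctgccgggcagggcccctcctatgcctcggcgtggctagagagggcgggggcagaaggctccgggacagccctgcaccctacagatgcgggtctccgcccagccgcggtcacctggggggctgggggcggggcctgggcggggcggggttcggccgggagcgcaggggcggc
LCP1 held 1 such match and TYROBP held 2, whereas CHI3L1 and CYBA held 0. The promoter table held 26 of the 39 members, with 36 promoters, of which 16 (44.4%) had a match, against 8277 of 35116 (23.6%) in the whole table. By origin in the controls, defined below, the shares were 47.1% of 17 promoters, 38.5% of 13 and 50% of 6. A match is a description of these letters and not a bound site.

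Library totals ran from 11488204 to 21264180 counts, so 1 count was worth under 0.1 CPM in every library, where CPM is counts per 1000000 counts. Levels are CPM of the unscaled library total, and values for single libraries stand in the order of replicates 1, 2 and 3. A gene not seen in a library could have had up to 3 counts, or 0.141 to 0.261 CPM, which covers counting error only. Among the 18, 2 libraries stood apart. In replicate 3 of fractal THP-1, 17934 genes were counted, against 21039 to 23157 in the others, and 0.847% of counts were mitochondrial. Smooth cytokines replicate 2 had 8.09% mitochondrial counts, where the remaining 16 libraries had 3.86% to 4.63%. Of the defining podocyte markers, NPHS1 (nephrin) had at most 3 counts in any group, while SYNPO (synaptopodin) averaged 63.7 to 111 CPM. Of 8 genes of immature myeloid cells, MPO, PRTN3 and CTSG had 0 counts in all 18 libraries and 4 others had at most 5 counts in any group. MYB, a transcription factor of blood progenitors, had 6 counts with fractal THP-1 against 198 in fractal controls, and 34 with smooth THP-1 against 138 in smooth controls, and fell on both (edgeR adjusted p = 3.99e-06 and 0.00334). Of 11 lymphocyte markers, CD3D, CD3E and CD3G were at 0 throughout, and GNLY (granulysin) had 12 counts with fractal THP-1, 21 with smooth THP-1 and 0 elsewhere.

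In the 6 control libraries, which had no macrophages, the 39 members fell into 3 classes. The first held 21 members with at most 3 counts over all 6 libraries: LCP1, CYBB, PLEK, TYROBP, LPL, CHI3L1, NCF4, FCGR2A, CD68, CD163, MRC1, LYZ, AIF1, HLA-DRA, HLA-DRB1, C1QA, C1QB, C1QC, FABP4, CCL3 and CCL4. A further 13 members left a trace, with more counts but a mean under 1 CPM in both control groups: ITGB2, LAPTM5, CD53, HCLS1, ITGAM, ITGAX, PTPRC, SPI1, FCER1G, CSF1R, MSR1, CD74 and APOE. The other 5 averaged at least 1 CPM in a control group and were therefore made by the podocyte line: CYBA, CD14, SRGN, CORO1A and ARHGDIB. A threshold of 2 CPM left CYBA, SRGN, CORO1A and ARHGDIB in the last class, and 0.5 CPM put 8 members there.

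**Figure D1:**
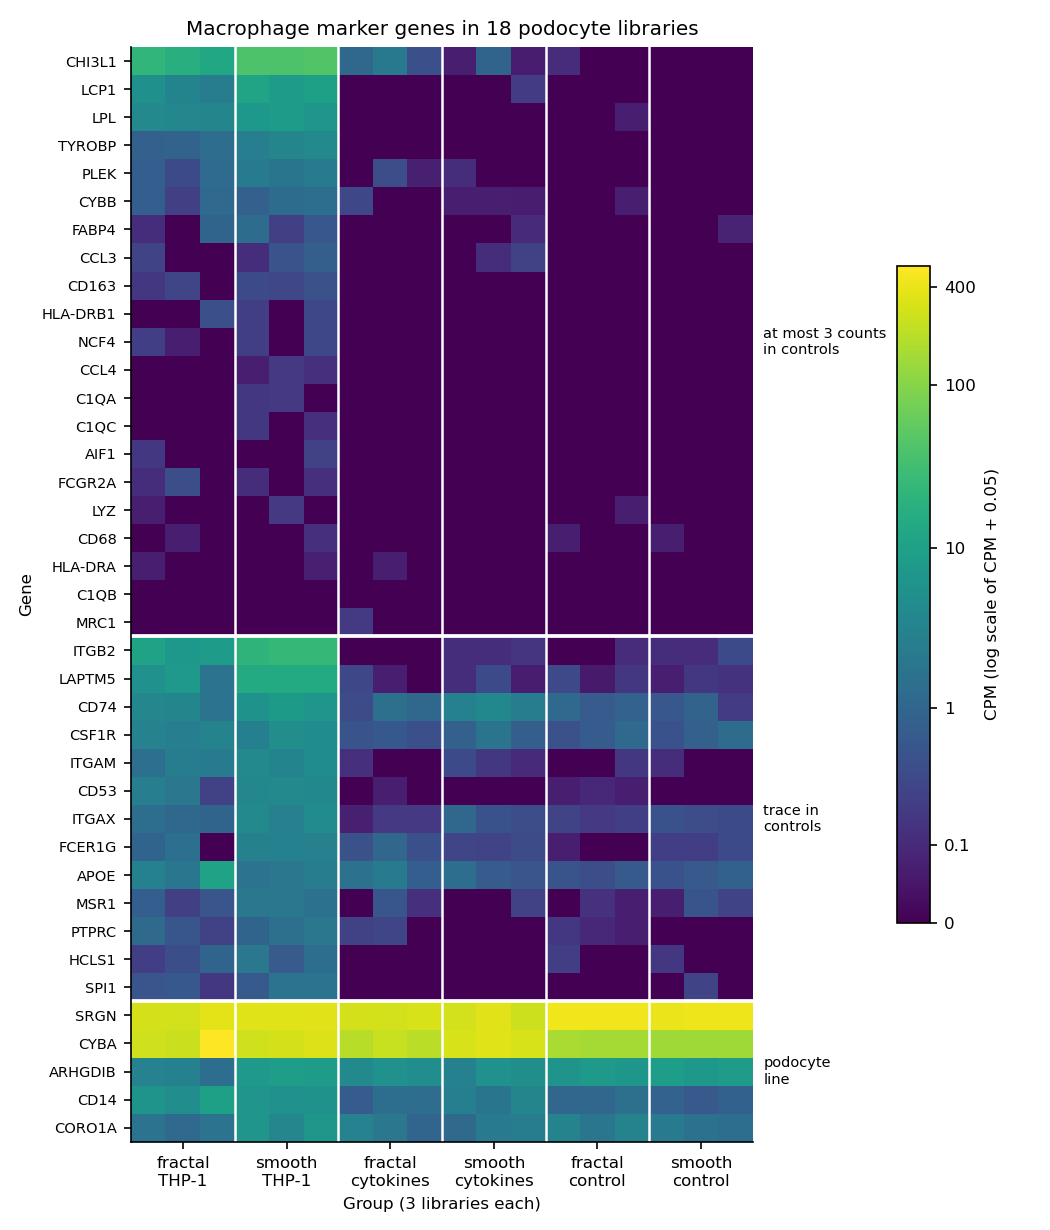
Level of each of the 39 members (rows, by class in the controls) in each of the 18 libraries (columns, by group), as a colour on a log scale of CPM + 0.05. The upper class is dark outside the 6 THP-1 libraries, apart from single pale cells such as CHI3L1 with cytokines, while SRGN and CYBA are bright in every column.

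Summed over its 21 members, the first class reached 35.5, 26.5 and 24.3 CPM in the fractal THP-1 libraries and 67.2, 64.1 and 70.6 CPM in the smooth THP-1 libraries. In the other 12 libraries its sum ran from 0 to 2.59 CPM. The 13 trace members summed to 32.2 ± 2.2 CPM with fractal THP-1 and 71 ± 4.5 CPM with smooth THP-1. They summed to 4.37 ± 1.8 and 6.65 ± 1.3 CPM in fractal and smooth cytokine libraries, and to 3.05 ± 0.61 and 3.56 ± 0.72 CPM in fractal and smooth controls (SD, n = 3 each). The 5 members made by the line summed to 689 ± 209, 671 ± 33, 526 ± 15, 630 ± 66, 613 ± 2.6 and 571 ± 8.2 CPM in the same order of groups. Of the first class, CHI3L1 alone held 832 of 1329 counts with fractal THP-1 and 2017 of 3294 with smooth THP-1. It also rose with fractal cytokines, which bring no macrophages, from 2 counts in controls to 59. In bulk RNA, fewer macrophages, less RNA per macrophage and a difference in what the podocytes made cannot be told apart.

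**Figure D2:**
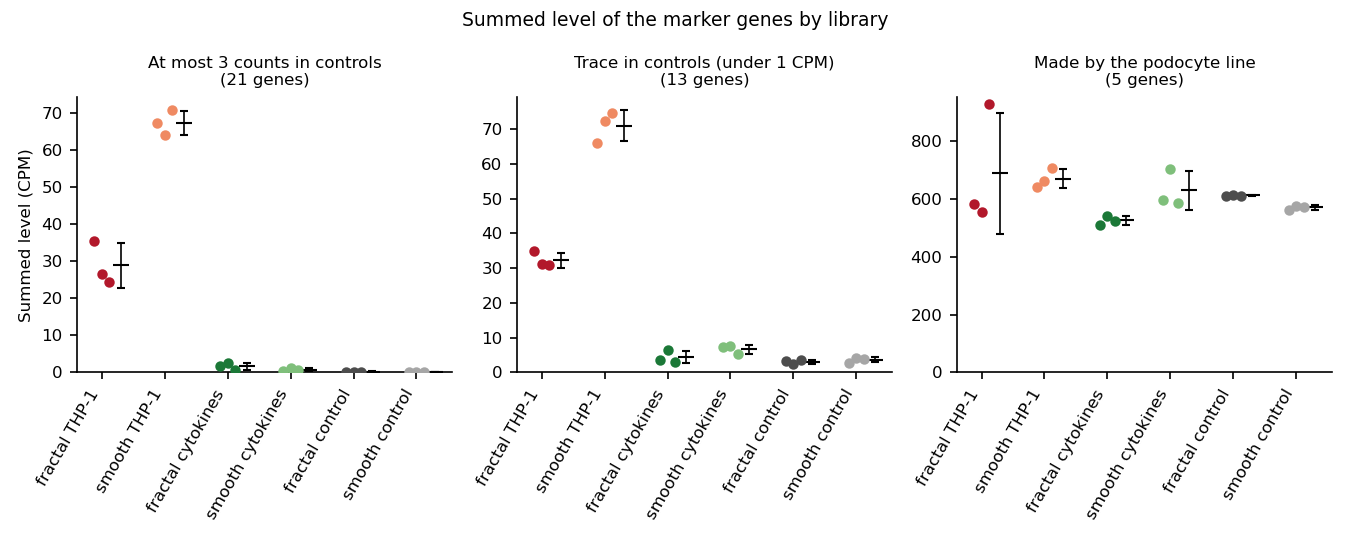
Summed level (CPM, linear axes from 0) of the 3 classes of members in each library, with the group mean and SD (n = 3) beside the points. In the left and middle panels the 6 THP-1 libraries lie above all others and the fractal THP-1 libraries lie below the smooth ones. In the right panel 1 fractal THP-1 library, replicate 3, stands alone.

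The comparison of THP-1 with control asks which members were higher in libraries with macrophages, whichever cells made them. Of the 39 members, 24 passed the filter on low counts and were tested with edgeR's quasi-likelihood test, with p-values adjusted by Benjamini-Hochberg over 16129 genes. On fractal topography 20 rose and 2 fell, where 25.0% of all tested genes rose and 25.5% fell. On smooth topography 22 rose and 1 fell, where 17.3% rose and 17.7% fell. With only the 2 groups compared in the model, 13 rose on fractal topography and 22 on smooth. On fractal topography CD53, CYBB, PLEK, PTPRC, SPI1, FCER1G and MSR1 then failed the filter on low counts and were not tested. No rise that was still tested lost the threshold there. In the model of all 6 groups, the median log2 difference of the 24 tested members was 3.79 on fractal topography and 3.88 on smooth. It was 3.17 and 3.88 with genes uncounted in controls at their lower bound. Over all tested genes it was 0.04 and 0.02. Members of the first and second class mostly passed the filter through the THP-1 libraries and were classed by their control counts, so these counts describe the members and support nothing further.

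The leukocyte integrins and surface proteins were clear in THP-1 libraries. ITGB2, the shared β2 chain of the leukocyte integrins (chr21:44885953-44931989 in GENCODE 29, GRCh38), had 10.7, 7.14 and 8.27 CPM with fractal THP-1, against 0, 0 and 0.115 CPM in fractal controls. With smooth THP-1 it had 21.3, 24.3 and 24.4 CPM, against 0.117, 0.115 and 0.357 CPM in smooth controls. No THP-1 library overlapped a control. The fractal controls held 2 counts in all, which gave a ratio of 246 with an exact counting interval of 67.7 to 2040 (95%; counting error only), and on smooth topography ITGB2 rose by a log2 difference of 6.83 ± 0.36 (SE, edgeR adjusted p = 1.31e-12). ITGAM, its αM partner in complement receptor 3, had 1.46, 2.4 and 2.26 CPM with fractal THP-1 and 3.94, 3.29 and 4.55 CPM with smooth THP-1. Controls had 3 counts of ITGAM on fractal and 2 on smooth topography, and it rose on both (edgeR adjusted p = 1.14e-05 and 1.73e-06). ITGAX, the αX partner found on macrophages and dendritic cells, was counted in every control. It averaged 1.15 ± 0.23 CPM with fractal THP-1 against 0.235 ± 0.05 CPM in fractal controls, and 3.7 ± 0.81 CPM with smooth THP-1 against 0.409 ± 0.055 CPM in smooth controls (SD, n = 3 each; edgeR adjusted p = 0.000857 and 1.41e-05).

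LAPTM5, a lysosomal membrane protein of blood cells, had 5.43, 7.38 and 1.65 CPM with fractal THP-1, against 0.345, 0.047 and 0.173 CPM in fractal controls. The smooth THP-1 libraries held 14.5, 14.6 and 14.8 CPM, against 0.0584, 0.172 and 0.143 CPM in smooth controls. The groups did not overlap, and replicate 3 of fractal THP-1 was the low one. LAPTM5 rose by log2 differences of 4.70 ± 0.59 on fractal and 6.72 ± 0.62 on smooth topography (SE, edgeR adjusted p = 6.74e-07 and 1.32e-08). CD53, a leukocyte tetraspanin, had 2.57, 1.92 and 0.261 CPM with fractal THP-1 and 3.59, 3.96 and 3.72 CPM with smooth THP-1. It was uncounted in smooth controls, which made smooth THP-1 at least 60.7-fold higher (floor of 3 counts over the group), and it rose on both topographies (edgeR adjusted p = 0.000106 on fractal and 2.53e-06 on smooth). PTPRC, which encodes CD45, the phosphatase on all nucleated blood cells, had 1.17, 0.54 and 0.261 CPM with fractal THP-1 and 0.942, 1.52 and 1.92 CPM with smooth THP-1. It rose on both topographies (edgeR adjusted p = 0.0214 and 0.000165), but on fractal topography the call ended without any of 3 single libraries, with adjusted p up to 0.157.

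Among proteins of the leukocyte cytoskeleton, LCP1 (L-plastin, an actin bundler; chr13:46125920-46211871) was uncounted in all controls. It had 5.19, 3.3 and 2.52 CPM with fractal THP-1 and 11.4, 8.11 and 9.75 CPM with smooth THP-1. Its level was therefore at least 71.3-fold higher with fractal THP-1 and at least 158-fold higher with smooth THP-1 (edgeR adjusted p = 1.41e-07 and 2.64e-08). Outside the THP-1 groups it had 4 counts, in 1 smooth cytokine library. PLEK, or pleckstrin, a kinase substrate of platelets and leukocytes, was also at 0 in controls. It had 0.759, 0.36 and 1.22 CPM with fractal THP-1 and 2.24, 1.83 and 2.24 CPM with smooth THP-1, at least 13.6-fold and 34-fold higher. HCLS1, a leukocyte relative of cortactin, averaged 1.34 ± 0.64 CPM with smooth THP-1 and rose there, with a ratio of 21.8 to 3 control counts (counting interval 7.13 to 108; edgeR adjusted p = 0.00459). With fractal THP-1 it averaged 0.537 ± 0.38 CPM against 0.0766 ± 0.13 CPM in fractal controls and missed the threshold (SD, n = 3 each; edgeR adjusted p = 0.0515). It passed there with DESeq2 (adjusted p = 0.0403), limma-voom (0.0207), RLE size factors (0.0494) and the replicate number as a block (0.0383). Without fractal control replicate 1, the log2 difference of HCLS1 was 6.09, against 2.68 with it (adjusted p = 0.0113), and without fractal THP-1 replicate 1 it also passed (0.0411).

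The phagocyte NADPH oxidase divided between the classes. Its membrane core is a heterodimer of gp91phox, encoded by CYBB, and p22phox, encoded by CYBA, which also serves the oxidases of other cells. CYBB had 0.759, 0.24 and 1.13 CPM with fractal THP-1 and 0.824, 1.28 and 1.41 CPM with smooth THP-1, against 1 count in fractal and 0 in smooth controls. It rose on both topographies (edgeR adjusted p = 0.00205 and 0.000377), and smooth THP-1 was at least 18.8-fold higher. CYBA, by contrast, stood at 165, 156 and 156 CPM in fractal controls and 144, 142 and 142 CPM in smooth controls. NCF4, which encodes the p40phox subunit, had 5 counts with fractal THP-1, 9 with smooth THP-1 and 0 elsewhere, and was not tested.

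The adaptors that carry ITAM motifs, through which Fc and other activating receptors signal, both came up. TYROBP (DAP12; chr19:35904401-35908295) had 0.817, 0.9 and 1.31 CPM with fractal THP-1 and 2.65, 3.35 and 3.85 CPM with smooth THP-1, and 0 counts in the other 12 libraries. This was at least 18.1-fold and 52.8-fold above the controls (edgeR adjusted p = 4.11e-05 and 4.01e-06). FCER1G, the Fc receptor γ chain, had 0.934, 1.44 and 0 CPM with fractal THP-1, against 0.0575, 0 and 0 CPM in fractal controls. The third fractal THP-1 library overlapped the controls, and the ratio to the single control count was 49.5 with a counting interval of 8.39 to 2003 (edgeR adjusted p = 0.00032). On smooth topography FCER1G averaged 2.88 ± 0.1 CPM with THP-1 against 0.274 ± 0.072 CPM in controls (SD, n = 3 each; edgeR adjusted p = 0.000538). FCGR2A, an Fc receptor for IgG, had 9 counts with fractal THP-1, 4 with smooth THP-1 and 0 elsewhere. SPI1, which encodes PU.1, averaged 0.433 ± 0.23 CPM with fractal THP-1 and 1.32 ± 0.58 CPM with smooth THP-1, against 0 counts in fractal controls and 5 counts, all in 1 library, in smooth controls. It rose on both topographies (edgeR adjusted p = 0.00465 and 0.00843), and the smooth call ended without smooth control replicate 1 or 3, with adjusted p up to 0.0551.

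The macrophage receptors split into genes that were counted well and classical markers that were nearly missing. CSF1R, the receptor for the macrophage growth factor CSF1, had 3.04, 2.58 and 3.13 CPM with fractal THP-1, against 0.46, 0.705 and 1.15 CPM in fractal controls. Smooth THP-1 libraries had 2.71, 4.88 and 4.55 CPM, against 0.468, 0.805 and 1.29 CPM in smooth controls. All THP-1 libraries lay above the controls, and CSF1R rose by log2 differences of 1.88 ± 0.42 and 2.17 ± 0.42 (SE, edgeR adjusted p = 0.000567 and 0.000212). MSR1, a scavenger receptor, averaged 0.507 ± 0.26 CPM with fractal THP-1 and 1.85 ± 0.27 CPM with smooth THP-1, against 0.0662 ± 0.071 and 0.287 ± 0.23 CPM in the matching controls (SD, n = 3 each). It rose with edgeR adjusted p = 0.0415 and 0.0211, and both calls ended when single libraries were left out, with adjusted p up to 0.146. CD163, a haemoglobin scavenger receptor, had 8 counts with fractal THP-1, 18 with smooth THP-1 and 0 elsewhere.

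MRC1, the mannose receptor, had 3 counts, all in 1 fractal cytokine library. CD68, the lysosomal glycoprotein most used to stain macrophages, had 5 counts over all 18 libraries, of which 1 and 2 were in fractal and smooth THP-1 libraries. For CD68 a low count is hard to read, because 85.8% of its exon bases are shared with ENSG00000264772 in GENCODE 29. Exon sharing of at least 75%, rounded to a whole percent, and under 99%, as in CD68, was found in 386 protein-coding genes. Of these, 61.9% had at most 18 counts in the whole table. The share was 99.1% of 350 genes with at least 99% shared and 33.2% of 11097 genes with none shared. CCL3 had 74.6% of its exon bases shared with CCL3-AS1 and LYZ 34% with ENSG00000257764. The libraries kept no strand, so reads of such overlapping genes cannot be separated.

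MHC class II was represented by its invariant chain. CD74, which escorts class II molecules, had 3.62, 3.48 and 1.65 CPM with fractal THP-1, against 1.15, 0.658 and 0.864 CPM in fractal controls. With smooth THP-1 it had 5.77, 7.92 and 6.54 CPM, against 0.584, 0.92 and 0.214 CPM in smooth controls. The groups did not overlap, and CD74 rose by log2 differences of 1.72 ± 0.41 and 3.42 ± 0.43 (SE, edgeR adjusted p = 0.00108 and 6.72e-07). HLA-DRB1, a class II β chain with close paralogs that can share its reads, had 5 counts with fractal THP-1 and 9 with smooth THP-1. HLA-DRA, the α chain, had 1 count in each THP-1 group. Neither was counted in controls.

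Among genes of lipid handling, LPL, the lipoprotein lipase that macrophages secrete, had 3.91, 3.6 and 3.39 CPM with fractal THP-1 and 7.12, 8.04 and 6.54 CPM with smooth THP-1. Controls held 1 count on fractal topography and 0 on smooth. The ratio on fractal topography was 205 with a counting interval of 36.4 to 8159, and smooth THP-1 was at least 117-fold higher (edgeR adjusted p = 2.07e-08 and 5.6e-09). APOE, the apolipoprotein E of macrophages and other cells, had 2.92, 1.86 and 10.7 CPM with fractal THP-1, against 0.517, 0.423 and 0.634 CPM in fractal controls. On smooth topography the THP-1 libraries had 1.65, 1.95 and 2.44 CPM, against 0.468, 0.632 and 0.858 CPM in smooth controls. Replicate 3 of fractal THP-1 was the high one, and no THP-1 library overlapped its controls. APOE rose on both topographies (edgeR adjusted p = 3.63e-05 on fractal and 0.0369 on smooth), and the smooth call ended without any 1 of the 6 libraries, with adjusted p up to 0.133. FABP4, a fatty acid carrier of fat cells and macrophages, had 13 counts with fractal THP-1, 35 with smooth THP-1 and 1 in controls.

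Of the secreted products, CHI3L1, a chitinase-like protein of differentiated macrophages (chr1:203178931-203186749), carried more counts than any other member of the first class. It had 22.9, 17.2 and 13.3 CPM with fractal THP-1, against 0.115, 0 and 0 CPM in fractal controls, and 40.2, 39.9 and 43.5 CPM with smooth THP-1, against 0 counts in smooth controls. The ratio on fractal topography was 515 with a counting interval of 142 to 4256, and smooth THP-1 was at least 666-fold higher (edgeR adjusted p = 1.11e-07 and 4.31e-08). Per kilobase of exon, CHI3L1 also led the first and second classes, at 5.22 ± 1.4 CPM per kb with fractal THP-1 and 12.1 ± 0.59 CPM per kb with smooth THP-1 (SD, n = 3 each). Next in smooth THP-1 libraries came LAPTM5 at 4.47 ± 0.046, TYROBP at 3.62 ± 0.66, ITGB2 at 3.43 ± 0.26 and FCER1G at 2.98 ± 0.11 CPM per kb. TYROBP overlapped ITGB2 and lay within its own spread of it and of FCER1G, whereas every smooth THP-1 library had a higher level per kilobase for ITGB2 than for FCER1G.

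The remaining secreted markers were close to 0. LYZ, the lysozyme of monocyte granules, had 1 count with fractal THP-1, 3 with smooth THP-1 and 1 in controls. The complement C1q chains C1QA and C1QC had 6 and 5 counts with smooth THP-1 and 0 elsewhere, and C1QB had 0 counts in all 18 libraries. The chemokines CCL3 and CCL4 had 5 and 0 counts with fractal THP-1 and 22 and 6 with smooth THP-1, and CCL3 had 7 more with smooth cytokines. AIF1, the actin-binding protein also called IBA1, had 3 and 4 counts in fractal and smooth THP-1 libraries. All of these failed the filter and were not tested.

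Fractal was then compared with smooth topography among the THP-1 libraries. Of the 24 tested members, 0 rose and 10 fell on fractal topography: ARHGDIB, CD74, CHI3L1, CORO1A, FCER1G, ITGAX, ITGB2, LAPTM5, LCP1 and TYROBP. Over all tested genes 8.25% rose and 11.7% fell. The median log2 difference of the tested members was -1.25, against 0.00 over all tested genes. ITGB2 was lower by a log2 difference of -1.36 ± 0.23 (SE, edgeR adjusted p = 0.000119), LAPTM5 by -1.52 ± 0.39 (adjusted p = 0.00774), LCP1 by -1.34 ± 0.39 (adjusted p = 0.0183) and TYROBP by -1.66 ± 0.53 (adjusted p = 0.0353). For each of these the 3 fractal libraries lay below the 3 smooth ones.

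Calls for ITGB2, ITGAX, CORO1A and ARHGDIB held under every alternative run. The calls for the others ended under some: LAPTM5 with DESeq2 (adjusted p = 0.0812), and LCP1, TYROBP, FCER1G, CD74 and CHI3L1 when single libraries were left out. Their highest adjusted p over all alternatives was 0.108 for LCP1, 0.141 for TYROBP, 0.175 for FCER1G, 0.107 for CD74 and 0.379 for CHI3L1. Without both libraries that stood apart, FCER1G (adjusted p = 0.0907) and CD74 (adjusted p = 0.0542) no longer passed. LPL missed the threshold with a log2 difference of -0.94 ± 0.34 (SE, edgeR adjusted p = 0.0562), although its fractal libraries too lay below every smooth one. It passed with DESeq2 (adjusted p = 0.0185) and limma-voom (0.00096). APOE missed it in the other direction, with a log2 difference of 1.37 (edgeR adjusted p = 0.0535) and libraries that overlapped. APOE passed as higher with DESeq2 (adjusted p = 0.0354), without a filter (0.016) and without fractal THP-1 replicate 1 (0.0262) or 2 (0.00867). CYBB, HCLS1, PTPRC and CSF1R overlapped between the topographies.

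Pooled counts gave the same comparison as a ratio of fractal THP-1 to smooth THP-1, with exact counting intervals at 95%. The first class had a pooled ratio of 0.436 (0.409 to 0.465), and 0.462 without fractal THP-1 replicate 3. Its 9 members with at least 20 counts in the 6 THP-1 libraries ran from 0.246 for CCL3 to 0.569 for CYBB. Between these lay TYROBP at 0.297 (0.208 to 0.418), PLEK at 0.347 (0.227 to 0.517), and the members with the most counts, at 0.392 (0.327 to 0.467) for LCP1, 0.446 (0.411 to 0.484) for CHI3L1 and 0.506 (0.418 to 0.61) for LPL. The 13 trace members had a pooled ratio of 0.457 (0.43 to 0.486), and 12 of them had an interval below 1. APOE was the exception, at 2.25 (1.76 to 2.9), or 1.2 (0.881 to 1.62) without fractal THP-1 replicate 3. The intervals cover counting error only, so they are narrower than the spread between libraries.

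**Figure D3:**
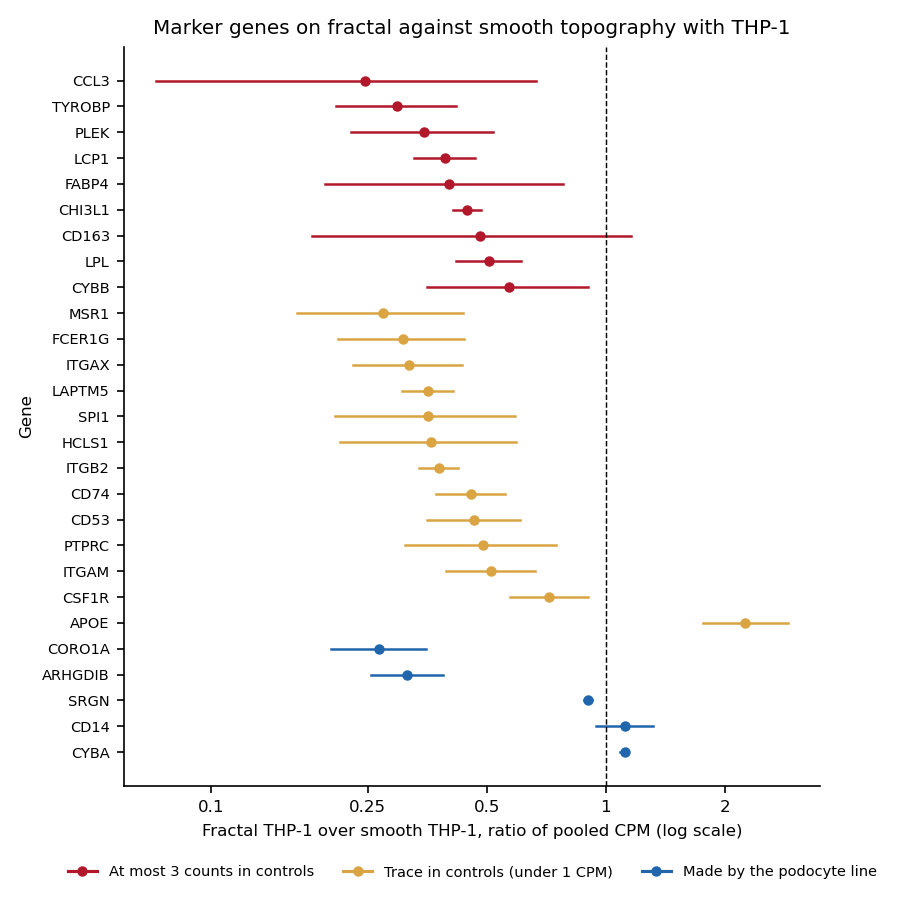
Ratio of pooled CPM in fractal THP-1 over smooth THP-1 libraries (log axis) for the 27 members with enough counts, with exact 95% counting intervals as lines and colours for the 3 classes. Most members lie left of the dashed line at 1, and APOE, CD14 and CYBA lie to its right.

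The 5 members made by the podocyte line gave ratios far apart. CYBA had 1.12 (1.09 to 1.14), CD14 1.12 (0.945 to 1.32) and SRGN 0.901 (0.882 to 0.922), whereas CORO1A had 0.267 (0.202 to 0.351) and ARHGDIB 0.314 (0.254 to 0.388). Without fractal THP-1 replicate 3 the ratios of CYBA and CD14 were 0.881 and 0.919.

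SRGN, which encodes serglycin, the proteoglycan core of secretory granules in blood and endothelial cells (chr10:69088106-69104811), was the most abundant member per length, at 363 CPM per kb in fractal controls and 342 CPM per kb in smooth controls. It had 300, 291 and 375 CPM with fractal THP-1, against 437, 450 and 444 CPM in fractal controls. In smooth THP-1 libraries its values were 348, 347 and 356 CPM, against 406, 426 and 421 CPM in smooth controls. SRGN thus lay below the controls in every library with THP-1 and fell by 0.49 ± 0.09 and 0.33 ± 0.09 on the log2 scale on fractal and smooth topography (SE, edgeR adjusted p = 7.79e-05 and 0.0058). CYBA (chr16:88643283-88651152) went the other way. It had 272, 255 and 542 CPM with fractal THP-1 and 273, 298 and 330 CPM with smooth THP-1, all above the controls. Its log2 differences were 1.13 ± 0.19 and 1.00 ± 0.19 (SE, edgeR adjusted p = 9.92e-05 and 0.0006), and the highest value came from fractal THP-1 replicate 3.

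CD14, the lipopolysaccharide co-receptor of monocytes (chr5:140631728-140633701), had 6.01, 4.74 and 9.92 CPM with fractal THP-1, against 1.03, 1.03 and 1.5 CPM in fractal controls. With smooth THP-1 it had 6.3, 5.49 and 5.77 CPM, against 0.877, 0.632 and 0.858 CPM in smooth controls. No THP-1 library overlapped the controls, and CD14 rose by log2 differences of 2.49 ± 0.33 and 2.81 ± 0.35 (SE, edgeR adjusted p = 6.28e-07 and 6.47e-07). CD14 overlapped between the topographies with THP-1, with a log2 difference of 0.26 ± 0.29 (SE, edgeR adjusted p = 0.581). How much of it came from podocytes and how much from macrophages cannot be told apart in these libraries.

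CORO1A and ARHGDIB were the members whose interaction of topography and THP-1 passed the threshold. CORO1A, the leukocyte actin regulator coronin 1A, had 1.69, 1.14 and 1.65 CPM with fractal THP-1, against 3.1, 1.88 and 3.11 CPM in fractal controls. Smooth THP-1 libraries had 6.24, 3.6 and 6.8 CPM, against 2.28, 1.55 and 1.36 CPM in smooth controls. CORO1A thus rose on smooth topography (log2 difference 1.59 ± 0.37 SE, edgeR adjusted p = 0.00155), while the fractal THP-1 libraries lay below their controls without passing (-0.87 ± 0.39 SE, edgeR adjusted p = 0.0683). ARHGDIB, a leukocyte-enriched inhibitor of GTPase cycling, had 2.98, 2.94 and 1.39 CPM with fractal THP-1, against 6.09, 7.43 and 6.68 CPM in fractal controls. Its smooth THP-1 values were 7.53, 8.72 and 8.21 CPM, overlapping the 8.65, 7.13 and 8.22 CPM of smooth controls. It fell by 1.45 ± 0.25 on the log2 scale on fractal topography (SE, edgeR adjusted p = 3.05e-05) and had a log2 difference of -0.05 ± 0.23 on smooth (adjusted p = 0.887). The interaction of topography and THP-1 was -2.46 ± 0.54 for CORO1A (edgeR adjusted p = 0.00272) and -1.40 ± 0.34 for ARHGDIB (adjusted p = 0.00589), and the other 22 tested members did not pass. Of these, CD74 had an interaction of -1.70 (edgeR adjusted p = 0.0633), which passed with DESeq2 (0.0292), without a filter on low counts (0.0352), with the replicate number as a block (0.0449), without smooth control replicate 2 (0.0362) and without fractal THP-1 replicate 1 (0.0474). LCP1, TYROBP and PLEK had 0 counts in all controls, so their interaction could not be estimated (SE 2802.31, 2805.82 and 2577.73) and could not pass. LPL, with 1 control count, had an SE of 1.78. For such members a missing call does not show an equal effect on both topographies. Over all tested genes 5.35% had a positive and 7.88% a negative interaction past the threshold. CORO1A shares 11.1% of its exon bases with CORO1A-AS1.

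**Figure D4:**
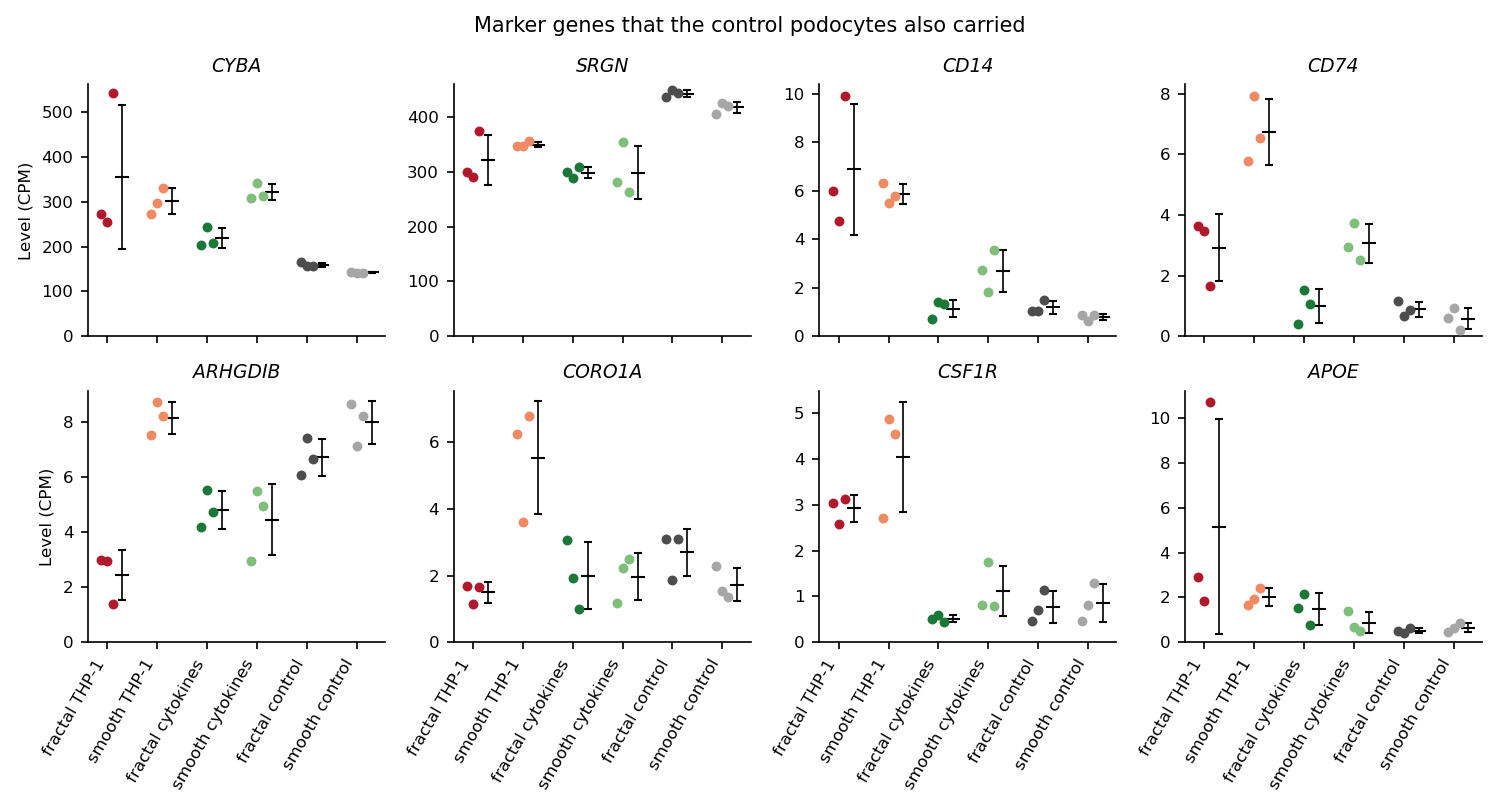
Level (CPM, linear axes from 0) of 8 members that controls also carried, in each library of the 6 groups, with group mean and SD (n = 3). CORO1A and ARHGDIB are low in fractal THP-1 libraries and high in smooth ones, CD14 overlaps between them, and CYBA and APOE have 1 high fractal THP-1 library.

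The cytokines, which bring no macrophages, were set against control in the same way. On fractal topography 2 rose (CHI3L1 and FCER1G) and 1 fell (SRGN), where 13.0% of all tested genes rose and 12.9% fell. On smooth topography 3 rose (CD14, CD74 and CYBA) and 2 fell (ARHGDIB and SRGN), where 13.2% rose and 12.4% fell. For 24 tested members these counts are close to or below the shares of all genes, but members with 0 counts in both groups could not pass. These were TYROBP on both topographies, LCP1 and SPI1 on fractal, and CD53, PTPRC and LPL on smooth. They passed the filter through the THP-1 libraries, so the counts do not measure a lack of response in them. With cytokines, LCP1, TYROBP and LPL together had only the 4 counts of LCP1 named above. CYBA had 203, 244 and 209 CPM with fractal cytokines and 309, 342 and 313 CPM with smooth cytokines, above every matching control. Its rise on smooth topography, a log2 difference of 1.21 ± 0.19 (SE, edgeR adjusted p = 0.000143), stood beside 1.00 ± 0.19 with THP-1. On fractal topography its log2 difference of 0.49 ± 0.19 missed the threshold (SE, edgeR adjusted p = 0.0666), but passed without both libraries that stood apart (adjusted p = 4.53e-09).

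CD14 had 0.707, 1.39 and 1.31 CPM with fractal cytokines, overlapping the fractal controls, and 2.71, 1.81 and 3.55 CPM with smooth cytokines, above the smooth controls. It rose by a log2 difference of 1.81 ± 0.36 on smooth topography (SE, edgeR adjusted p = 0.000433) and by none that passed on fractal (-0.03 ± 0.37, adjusted p = 0.97). CD74 had the same form, with 0.385, 1.51 and 1.06 CPM in fractal cytokine and 2.94, 3.74 and 2.5 CPM in smooth cytokine libraries. Its log2 difference was 0.19 ± 0.45 on fractal topography (adjusted p = 0.806) and 2.40 ± 0.44 on smooth (SE, edgeR adjusted p = 0.000157). Among cytokine libraries CD14, CD74 and ITGAX were lower on fractal than on smooth topography (log2 differences -1.26 ± 0.34, -1.63 ± 0.41 and -2.15 ± 0.60 SE; edgeR adjusted p = 0.0312, 0.0155 and 0.036), where 1.72% of all tested genes rose and 2.74% fell. All of these calls ended when single libraries were left out, with adjusted p up to 0.208, 0.123 and 0.22. The interaction of topography and cytokines itself passed for 0 members with edgeR, where 2.70% of all genes passed. At an unadjusted p under 0.05 there were 4, with DESeq2 3 and with limma-voom 0. CD14 (-1.84 ± 0.52, adjusted p = 0.0545) and CD74 (-2.21 ± 0.63, adjusted p = 0.0612) came nearest. For LCP1, PLEK, TYROBP, CD53, PTPRC, SPI1, HCLS1 and LPL it could not be estimated, because several of the groups had 0 counts.

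CHI3L1 had 1.09, 2.11 and 0.438 CPM with fractal cytokines, against 2 counts in fractal controls, and 0.0589, 0.935 and 0.0521 CPM with smooth cytokines, against 0 counts in smooth controls. The smooth value came mainly from replicate 2, 1 of the libraries that stood apart. CHI3L1 rose on fractal topography (edgeR adjusted p = 0.00477) and not past the threshold on smooth (adjusted p = 0.0787). FCER1G had 0.45, 1.02 and 0.438 CPM with fractal cytokines, against 1 count in fractal controls, and rose there (edgeR adjusted p = 0.00205). SRGN had 300, 289 and 309 CPM with fractal cytokines and 282, 354 and 263 CPM with smooth cytokines, below every matching control. It fell by 0.54 ± 0.09 and 0.44 ± 0.09 on the log2 scale (SE, edgeR adjusted p = 6.9e-05 and 0.000584). CHI3L1 and FCER1G were thus not confined to libraries with macrophages. With either treatment SRGN was lower and CYBA higher than in the matching controls, library by library.

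Set directly against cytokines, THP-1 libraries on fractal topography had 17 members higher and 1 lower (ARHGDIB), where 15.4% of all tested genes were higher and 20.5% lower. FCER1G, with 40 counts against 31, did not pass there, nor did PTPRC, MSR1, PLEK, CORO1A and SRGN (edgeR adjusted p = 0.747, 0.112, 0.401, 0.0729, 0.387 and 0.709). Under some alternative runs PLEK and PTPRC passed (lowest adjusted p = 0.0125 and 0.045). On smooth topography 21 were higher and 0 lower, where 10.6% were higher and 11.8% lower. These comparisons share their THP-1 libraries with those against control. CYBA and SRGN overlapped between treatments on smooth topography, with log2 differences of -0.22 ± 0.19 and 0.11 ± 0.09 (SE, edgeR adjusted p = 0.473 and 0.426). For SRGN the overlap came from smooth cytokines replicate 2 alone, at 354 CPM. Without both libraries that stood apart SRGN was higher with THP-1, by a log2 difference of 0.24, and CYBA lower, at -0.18 (edgeR adjusted p = 0.00138 and 0.0353). CD14 was higher with THP-1 by log2 differences of 2.52 ± 0.33 on fractal and 1.00 ± 0.30 on smooth topography (SE, edgeR adjusted p = 1.39e-06 and 0.0173). Leaving out smooth cytokines replicate 2 ended the smooth call (adjusted p = 0.103), and leaving out fractal THP-1 replicate 3 ended that of APOE on fractal topography (adjusted p = 0.303).

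Between fractal and smooth controls 0 of the 24 tested members passed with edgeR, where 1.77% of all genes did. At an unadjusted p under 0.05 there were 3, and DESeq2 and limma-voom also called 0. LCP1, PLEK and TYROBP had 0 counts in both control groups and could not pass. CSF1R, a trace member, had 43 counts in fractal and 40 in smooth controls, and CD74 had 49 and 29 and APOE 29 and 31. FCER1G had 1 count in fractal controls and 13 in smooth controls, with no overlap, and ITGB2 had 2 and 9. FCER1G missed the threshold (edgeR adjusted p = 0.192) but was lower on fractal topography without both libraries that stood apart (adjusted p = 0.0314).

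Other myeloid genes gave a second view. Of 54, chosen like the members with earlier results of these data known, 24 were tested. With THP-1 against control, 17 rose and 4 fell on fractal topography, where 25.0% of all tested genes rose and 25.5% fell. On smooth topography 17 rose and 1 fell, where 17.3% rose and 17.7% fell. SPP1 (osteopontin) averaged 21.6 CPM with fractal THP-1 against 6.92 in fractal controls, and 40.7 CPM with smooth THP-1 against 4.4 in smooth controls (edgeR adjusted p = 2.28e-09 and 1.15e-13). TLR2, a receptor for bacterial lipoproteins, averaged 5.2 against 0.139 CPM on fractal and 6.67 against 0.16 CPM on smooth topography (edgeR adjusted p = 2.7e-09 and 4.71e-09). SIRPA, the CD47 receptor, was like CYBA abundant in controls and averaged 168 CPM with THP-1 against 94 on fractal and 234 against 80.8 on smooth topography (edgeR adjusted p = 5.83e-09 and 7.24e-13). With cytokines and no macrophages, 4 of these genes rose and 2 fell on fractal topography, where 13.0% of all tested genes rose and 12.9% fell. On smooth topography 7 rose and 2 fell, where 13.2% rose and 12.4% fell. There TLR2 rose to 1.96 CPM and SIRPA to 124 CPM, while SPP1 fell to 2.33 CPM. Among THP-1 libraries 5 of these genes were lower on fractal than on smooth topography, with TLR4, SPP1 and SIRPA first, and TREM1 was higher (edgeR adjusted p = 0.00821), where 11.7% of all tested genes were lower and 8.25% higher.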

How the data were processed

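RNA of 18 libraries was selected by poly-T, made into libraries without strand and sequenced as paired reads of 150 bases, per the labels' protocols. The submitters' processing notes list the build GRCh38 (hg38) and the tools featureCounts 1.5.0-p3, HISAT2 2.0.5 and CASAVA. What each did, and the annotation, is not given in the sources used here. The deposited table holds raw counts per Ensembl gene as the authors made them, with no normalization. Gene positions and shared exon bases came from GENCODE 29, which held all 58735 genes, with bedtools 2.31.1. Counts were fitted in edgeR 4.0.16 (R 4.3.3) after TMM scaling and filterByExpr (min.count 10, min.total.count 15; 16129 genes kept), in 1 model of 6 group means with 12 residual degrees of freedom and a biological coefficient of variation of 12.2%. Quasi-likelihood F-tests of 11 comparisons were adjusted by Benjamini-Hochberg within each, with a threshold of 0.05. Levels are CPM of unscaled totals. The fit was first checked on simulated data with known changes. Alternatives were DESeq2 1.42.0, limma-voom 3.58.1, RLE size factors, other filters, only the groups of a comparison, the replicate number as a block and leaving out each library. A further alternative, chosen after seeing the data, left out both fractal THP-1 replicate 3 and smooth cytokines replicate 2.

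The members and lists were chosen with earlier results of these data known. Values in every library are given for members that passed in a THP-1 comparison or are made by the line, up to 20, ordered by role. From other lists up to 3 genes per direction were named by adjusted p. Differences between libraries of a group exceeded counting error, with a chi-square per degree of freedom of 2.46 to 58.2, so no library was counted as a repeat of another. Replicate numbers were checked for pairing and did not pair the libraries. Some genes are not reported here.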

Additional observations from a re-analysis of the deposited data

Results flagged for a closer look

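The effect of THP-1 macrophages differed between topographies for CORO1A and ARHGDIB. The interaction, the fractal minus the smooth log2 difference, was -2.46 for CORO1A (edgeR adjusted p = 0.00272) and -1.40 for ARHGDIB (edgeR adjusted p = 0.00589). CORO1A averaged 1.5 ± 0.31 CPM with fractal THP-1 and 2.7 ± 0.71 CPM in fractal controls, and 5.54 ± 1.7 CPM with smooth THP-1 and 1.73 ± 0.49 CPM in smooth controls (SD, n = 3 each). ARHGDIB averaged 2.44 ± 0.9 CPM with fractal THP-1 and 6.73 ± 0.67 CPM in fractal controls, and 8.15 ± 0.59 CPM with smooth THP-1 and 8 ± 0.78 CPM in smooth controls (SD, n = 3 each). Beside them, the summed level of the 21 members almost uncounted in controls was 28.8 ± 6 CPM with fractal THP-1 and 67.3 ± 3.2 CPM with smooth THP-1 (SD, n = 3 each). Their part in the interactions was not tested.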

How the results depend on the processing

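Of 264 tests of members, 107 passed. Of these, 83 kept the threshold in every alternative run that still tested the gene, and 24 lost it under some. A further 27 that had not passed did so under some. A call whose gene failed the filter on low counts in an alternative run was not scored as lost. With THP-1 against control the counts of members that passed in either direction stayed within 1.5 times on both topographies. With only the groups of the comparison 13 rose on fractal topography, against 20, because the filter on low counts left the rest untested. With fractal cytokines against control 5 members passed with DESeq2, 5 without a filter on low counts and 6 without both libraries that stood apart. With only the groups of the comparison, 10 passed for THP-1 against cytokines on fractal topography and 1 for fractal against smooth controls. In the former, CYBA, CD74, ARHGDIB and APOE lost the threshold, while CD53, CYBB, HCLS1 and SPI1 failed the filter and were not tested. Fractal against smooth with THP-1 gave 5 to 9 members when single libraries were left out. Fractal against smooth with cytokines gave 1 with limma-voom, 0 to 3 with single libraries left out and 5 without both libraries that stood apart. Without both, 1 member passed between controls, 4 in the interaction with THP-1 and 4 in that with cytokines. The interaction with cytokines gave 3 members with DESeq2, 2 without a filter, 2 with only its groups and 0 to 1 with single libraries left out. With the replicate number as a block, 2 members passed in that interaction and no other count moved by over 1.5 times. Same-numbered libraries did not deviate together (correlations -0.09 to 0.06), so the numbers do not pair the libraries. A threshold of 0.5 CPM put 8 members in the class made by the podocyte line. The interaction with THP-1 of CYBA, 0.14 on the log2 scale, ran from -0.27 to 0.32 with single libraries left out, reversed without fractal THP-1 replicate 3 (-0.27, adjusted p = 0.0429), and was -0.27 without both libraries that stood apart (adjusted p = 0.0236). Apart from the members that failed a filter, the cause of these changes was not tested. Depth limits the members with a few counts, among them C1QA, LYZ, AIF1 and HLA-DRA, for which a difference between topographies was not detectable.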

Other observations

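Genes outside the 39 members were ranked by the same pattern, as a description with no test. Of 4584 protein-coding genes with at most 3 counts over the 12 control and cytokine libraries, 71 had at least 20 counts over the 6 THP-1 libraries. The 15 with the highest level included A2M, DOCK8, ALPP, CYP19A1, ITGB7, NCKAP1L, WDFY4, C5AR2, COL22A1, CYP1A2, DCSTAMP, RGS1, ACP3 and RUBCNL. Of the 15, 13 had a ratio of fractal to smooth THP-1 below 1. A2M, the protease inhibitor α2-macroglobulin, had 91, 62 and 29 counts with fractal THP-1 and 176, 173 and 135 counts with smooth THP-1, a ratio of 0.407 (exact counting interval 0.341 to 0.483). DCSTAMP, which macrophages need to fuse into giant cells, had 18, 5 and 0 counts with fractal THP-1 and 36, 22 and 31 counts with smooth THP-1.

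Markers of other cell types were counted in the same libraries. IL7R, a cytokine receptor of lymphocytes and the single lymphocyte marker of 11 that could be tested, averaged 3.57 ± 1.2 CPM with fractal cytokines and 13.7 ± 6.1 CPM with smooth cytokines, against 3.88 ± 0.98 and 3.15 ± 0.58 CPM in the matching controls (SD, n = 3 each). It rose with cytokines on smooth topography (edgeR adjusted p = 4.48e-06) and fell with THP-1 on fractal topography, to 0.678 ± 0.21 CPM (edgeR adjusted p = 7.12e-06). PECAM1, an adhesion molecule of endothelium and of leukocytes, averaged 10.7 CPM with fractal THP-1 against 0.317 in fractal controls, and 4.78 CPM with smooth THP-1 against 0.323 in smooth controls. It rose on both topographies (edgeR adjusted p = 1.81e-10 and 1.46e-07) and, among THP-1 libraries, was higher on fractal than on smooth topography (edgeR adjusted p = 0.00511). Of the 5 endothelial markers tested, CDH5 and KDR lay the other way among THP-1 libraries. CDH5 averaged 6.02 CPM with fractal THP-1 and 17.4 CPM with smooth THP-1, and KDR 0.492 and 1.77 CPM (edgeR adjusted p = 8.54e-05 and 0.000922). Against control, KDR fell with fractal THP-1 (1.86 CPM in fractal controls; edgeR adjusted p = 9e-05) and CDH5 rose with smooth THP-1 (8.49 CPM in smooth controls; edgeR adjusted p = 0.00257). With cytokines, which bring no macrophages, PECAM1 and KDR rose and CDH5 fell against control on both topographies. PECAM1 averaged 2.22 CPM with fractal cytokines and 2.76 CPM with smooth cytokines. HLA-DMB, which loads peptide on MHC class II, averaged 2.02 CPM with fractal THP-1 against 0.0157 in fractal controls, and 1.23 CPM with smooth THP-1 against 0.12 in smooth controls (edgeR adjusted p = 4.38e-07 and 0.000412). It also rose with cytokines on both topographies, to 0.373 CPM on fractal and 1.28 CPM on smooth. Of the 7 MHC class II partners tested, RFX5 also rose with THP-1 on both topographies, whereas RFXAP fell on smooth topography, to 4.99 CPM with THP-1 against 8.22 CPM in controls (edgeR adjusted p = 0.00409). With fractal cytokines RFXAP rose and RFX5 fell. HLA-DPB1 averaged 0.751 CPM with fractal THP-1 against 1.59 CPM in fractal controls, and 1.06 CPM with smooth THP-1 against 1.56 CPM in smooth controls, and did not pass (edgeR adjusted p = 0.0709 and 0.311). The podocyte surface protein PODXL fell with THP-1 to 2.58 ± 0.68 CPM on fractal topography, against 10.1 ± 1.1 CPM in controls, and to 6.44 ± 1.1 CPM on smooth, against 9.68 ± 1.2 CPM (SD, n = 3 each; edgeR adjusted p = 1.11e-07 and 0.0157).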
